A study of Mus musculus with 18 samples.

Results

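The genes described here are Psmc1, Psmc2, Psmc3, Psmc4, Psmc5 and Psmc6, the ATPase subunits of the 19S regulatory particle of the proteasome. They were taken by symbol from the deposited tables and make up 6 of the 24318 genes listed there. Their subunits form a ring of AAA ATPases in the base of the regulatory particle, which sits on the 20S core, unfolds ubiquitin-tagged proteins with the energy of ATP and threads them into the core for cutting. The ring is built from pairs of neighbouring subunits, Psmc2 with Psmc1, Psmc6 with Psmc3, and Psmc4 with Psmc5, and each pair is held by its own assembly chaperone before the ring closes. Cells that lose proteasome activity are known to raise the transcripts of proteasome subunits, and the transcription factor Nrf1 (gene Nfe2l1), which binds DNA as a heterodimer with a small Maf protein, is a known activator of these genes.

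The data are 18 libraries of poly(A)-selected RNA from immortalised embryonic fibroblasts of the mouse. All cells carried the genotype MafF-/-::MafG-/-::MafK-/-, so that the mock cells, which served as the controls, also lacked the 3 small Maf proteins. The other line expressed T-N1G, a tethered heterodimer of Nrf1 and MafG whose name the genotype labels write as T-NG1. Each line was grown in medium with fetal bovine serum and treated for 12 h with MG132, which inhibits the proteasome, at 0.3 µM or 1.0 µM, or with vehicle. Each of these 6 groups had 3 libraries. The sources used here do not name the promoter that drives T-N1G, nor say whether either line is 1 clone. Nothing in the labels says that the libraries of a group are separate cultures, so the p-values rest on a spread between libraries that may be technical. The design asks whether the tethered protein changes the transcripts, and whether it changes their response to MG132.

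The libraries held 18164380 to 21196906 fragments, and each ring gene had between 1912 and 13660 of them in every library. Mafg, the gene of the MafG moiety, had 6 to 25 fragments in the mock libraries and 3079 to 69014 in the T-N1G libraries, while Nfe2l1 had a mean of 279.9 CPM in mock and 1102 CPM in T-N1G cells under vehicle. Mafg averaged 159 CPM, 814 CPM and 3290 CPM in the T-N1G groups with vehicle, 0.3 µM and 1.0 µM. At 0.3 µM and 1.0 µM, Nfe2l1 averaged 4637 CPM and 17010 CPM in T-N1G cells, and 375.6 CPM and 314.9 CPM in mock cells. Both transcripts of the tethered protein thus differed between the treatments in T-N1G cells. Fragments of the construct and of the cells' own genes cannot be told apart by the counts. For Mafg, though, the mock libraries, which shared the MafG-/- genotype, held 25 fragments at most. The summed CPM of 10 fibroblast markers lay between 8376 and 13230 in every library, although Lum had fewer than 3 fragments in each group. The members did not keep their levels between vehicle and 1.0 µM. In mock cells Col1a1 went from 2809 to 1188 CPM and Fn1 from 2047 to 6733 CPM. In T-N1G cells they went from 2744 to 966 CPM and from 2245 to 6314 CPM. Col1a2, Col3a1, Vim and Pdgfrb also went down in both lines, Col1a2 from 3042 to 960 CPM (mock) and from 3432 to 853 CPM (T-N1G). Fn1 alone of the markers went up in T-N1G cells, while in mock cells Thy1 (401 to 491 CPM) and Dcn also did. Dcn averaged 7.63 CPM or less in every group. The 5 leukocyte markers in the table together stayed at or below 4.855 CPM, and the 5 muscle or fat markers at or below 1.838 CPM. The sum of the 4 endothelial markers, most of it from Kdr, was 6.301 to 7.04 CPM in mock vehicle. It was 18.49 to 25.93 CPM in mock 0.3 µM and 62.77 to 82.34 CPM in mock 1.0 µM. In T-N1G cells this sum was 5.225 to 6.998 CPM under vehicle, 5.576 to 9.378 CPM at 0.3 µM and 24.08 to 37.34 CPM at 1.0 µM. The 4 epithelial markers, mostly Krt14, summed to 17.51 to 20.72 CPM in mock vehicle, 54.19 to 57.68 CPM in mock 0.3 µM and 34.86 to 63.3 CPM in mock 1.0 µM, and to 15.99 to 32.81 CPM in the T-N1G libraries. The part of these markers in the results was not tested. Libraries at 1.0 µM varied most, and the SD of log2 CPM had a median over well expressed genes of 0.14 (mock) and 0.17 (T-N1G) there, against 0.05 and 0.06 under vehicle.

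The ring genes lie on 6 different chromosomes. In the mm9 coordinates of the deposited table Psmc1 spans chr12:101350541-101361574, Psmc2 chr5:21291101-21309602 and Psmc3 chr2:90894173-90899595. Psmc4 spans chr7:28826721-28835111, Psmc5 chr11:106117499-106124426 and Psmc6 chr14:45949499-45968746. Promoter sequence of 5 of the 6 genes was found in the RefSeq table of build GRCm38.p6, where Psmc2 has 2 start sites. The stretches shown here were chosen because the members moved together under MG132 in T-N1G cells, and they hold the matches to TGACNNNGC and CCAAT, or, for Psmc4, the gene with the largest change, 241 bases without a match to either. They are written 5′ to 3′ on the strand of the gene, ending before its start site, and capitals mark a match to TGACNNNGC, the core letters of the antioxidant response element to which CNC and small Maf heterodimers bind, or to CCAAT.
Psmc6, chr14:45329574-45329673, plus strand: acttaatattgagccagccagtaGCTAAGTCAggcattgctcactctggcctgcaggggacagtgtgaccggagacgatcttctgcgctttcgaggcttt
Psmc1, chr12:100109952-100110051, plus strand: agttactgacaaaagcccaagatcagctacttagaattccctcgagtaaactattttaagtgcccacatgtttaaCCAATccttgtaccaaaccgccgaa
Psmc2, chr5:21785245-21785274, plus strand: cgCCAATgcgcgcggccgcctacttcctct
Psmc4, chr7:28050102-28050342, minus strand: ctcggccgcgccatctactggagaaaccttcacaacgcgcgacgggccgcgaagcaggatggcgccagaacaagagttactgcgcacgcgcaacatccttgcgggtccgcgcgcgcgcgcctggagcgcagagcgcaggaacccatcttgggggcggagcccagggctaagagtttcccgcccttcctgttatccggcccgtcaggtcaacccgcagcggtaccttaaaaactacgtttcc

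Each window of 250 bases before a start site was searched on both strands. TGACNNNGC was found in 1 of 5 ring genes, Psmc6, on the opposite strand at 227 to 219 bases before the start, and in 11.5% of all 27025 genes of the table, searched over the same length. The looser form TGANNNNGC, which overlaps with it, was found in Psmc2 and Psmc6 and in 38.7% of all genes, in Psmc2 before the other of its start sites, outside the stretch printed. CCAAT was found in Psmc1, at 175 to 171 bases, and in Psmc2, at 28 to 24 bases before the start, and in 37.5% of all genes. The match in Psmc2 lies inside an annotated exon of Dnajc2, a neighbouring gene on the other strand. TGANTCA, the AP-1 site, had no match in the 5 ring genes and was found in 7.82% of all genes. Among 22 other subunit genes with a promoter in the table, 4 held TGACNNNGC (Adrm1, Psmd12, Psmb5 and Psmb6), 8 held TGANNNNGC, 9 held CCAAT and none held TGANTCA. These matches describe the letters in these windows and do not say where a factor is bound.

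Levels of the ring genes in the libraries are given next as TMM-scaled CPM, fragment counts divided by the library's scaled total, a scale that serves to compare libraries and not genes of different length. In bulk RNA, fewer cells with a transcript and less of it per cell cannot be told apart. All adjusted p-values come from edgeR's quasi-likelihood test with Benjamini-Hochberg adjustment over the 13258 genes tested, and genes were called at an adjusted p under 0.05. The comparisons share libraries with each other, as each MG132 group is set against the vehicle group of its line and against the other line at the same dose.

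Psmc2 and Psmc1, the pair that Psmd5 holds during assembly, both had more transcript in T-N1G than in mock cells under vehicle. Psmc2 had 167, 169 and 162 CPM in the mock vehicle libraries, 225, 219 and 229.6 CPM at 0.3 µM and 303, 284 and 259 CPM at 1.0 µM. In T-N1G cells it had 222, 239.8 and 218 CPM under vehicle, 508.5, 537 and 481 CPM at 0.3 µM and 757, 647 and 624 CPM at 1.0 µM. From lowest to highest, the groups were mock vehicle, mock 0.3 µM, T-N1G vehicle, mock 1.0 µM, T-N1G 0.3 µM and T-N1G 1.0 µM, and only mock 0.3 µM and T-N1G vehicle overlapped. Psmc1 had 136, 141 and 129.8 CPM in the mock vehicle libraries, 138, 136 and 134 CPM at 0.3 µM and 129, 135 and 123 CPM at 1.0 µM. Its T-N1G libraries held 178, 193 and 171.5 CPM under vehicle, 357, 386 and 347 CPM at 0.3 µM and 443, 388 and 379 CPM at 1.0 µM. All 3 mock groups of Psmc1 overlapped, every T-N1G library lay above every mock library, and the T-N1G groups at 0.3 and 1.0 µM overlapped with each other.

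Psmc6 and Psmc3 form the pair bound by the chaperone Psmd9. As with every ring gene, each had more transcript in every T-N1G library with MG132 than in any other library. The number of all genes separated in this way was not counted. Of all genes tested, 25% at 0.3 µM and 30.7% at 1.0 µM were called higher in T-N1G than in mock cells. Psmc6 had 134, 137 and 133 CPM in mock vehicle, 196, 202 and 198.5 CPM in mock 0.3 µM and 187, 194 and 165 CPM in mock 1.0 µM. With T-N1G it had 146, 153 and 147.5 CPM under vehicle, 511, 554 and 499.9 CPM at 0.3 µM and 646.5, 521 and 462.5 CPM at 1.0 µM. The order of Psmc6 was mock vehicle, T-N1G vehicle, mock 1.0 µM, mock 0.3 µM, T-N1G 0.3 µM and T-N1G 1.0 µM, and only the last 2 overlapped. Psmc3 had 174, 170.3 and 166 CPM in mock vehicle, 186, 181 and 183 CPM in mock 0.3 µM and 190.4, 199 and 159.6 CPM in mock 1.0 µM. The T-N1G libraries held 198, 199.8 and 189.7 CPM of Psmc3 under vehicle, 508, 543 and 488.5 CPM at 0.3 µM and 839, 619 and 540.2 CPM at 1.0 µM. The mock 1.0 µM libraries of Psmc3 were spread widely enough to overlap with mock vehicle, mock 0.3 µM and T-N1G vehicle, while the 6 T-N1G libraries with MG132 lay above all others.

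Psmc4 and Psmc5 form the pair bound by Psmd10, also known as gankyrin. Psmc4 had 92.9, 97.2 and 89.3 CPM in mock vehicle, 141, 134 and 139.9 CPM in mock 0.3 µM and 139, 133 and 110.4 CPM in mock 1.0 µM. Its T-N1G libraries held 91.0, 98.1 and 88.0 CPM under vehicle, 345, 373 and 337 CPM at 0.3 µM and 539, 399 and 369 CPM at 1.0 µM. The vehicle groups of the 2 lines overlapped, the mock groups with MG132 lay above them and overlapped with each other, and so did the T-N1G groups with MG132 above those. Psmc5 had 156.5, 164 and 152 CPM in mock vehicle, 182, 177 and 180.5 CPM in mock 0.3 µM and 163, 188 and 146 CPM in mock 1.0 µM. The T-N1G libraries held 137, 147 and 135 CPM of Psmc5 under vehicle, 372, 394 and 365 CPM at 0.3 µM and 556, 459.6 and 414 CPM at 1.0 µM. Psmc5 was lowest in T-N1G vehicle, its mock 1.0 µM libraries overlapped with those of both vehicle groups and of mock 0.3 µM, and the T-N1G groups at 0.3 and 1.0 µM did not overlap. The plot of levels by line and dose shows these values for all 6 genes.

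**Figure D1:**
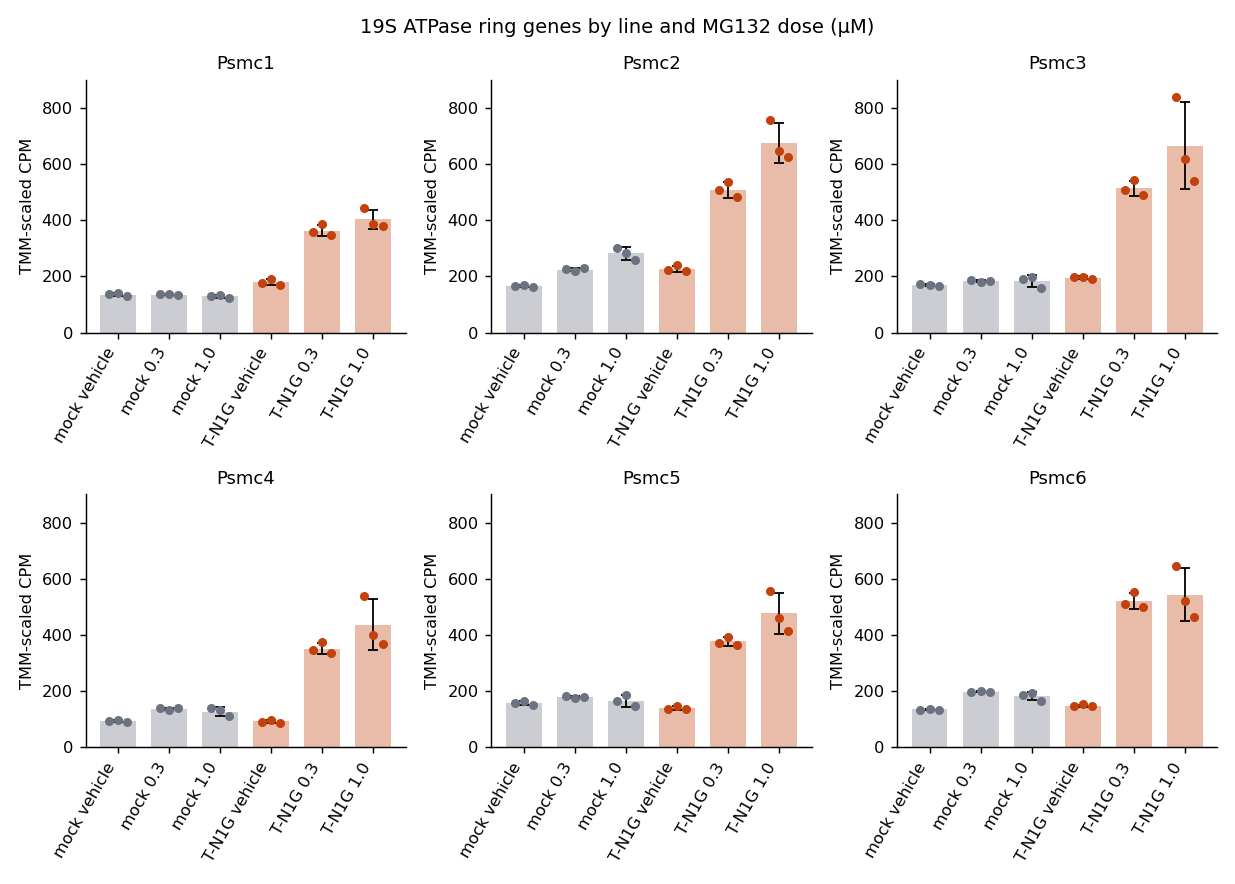
TMM-scaled CPM of each ring gene (vertical axis) in mock (grey) and T-N1G (orange) cells under vehicle, 0.3 µM and 1.0 µM MG132, with a point per library, bars for the mean and lines for the SD (n = 3). In every panel the T-N1G libraries with MG132 lie above all other libraries, a separation that was not counted over all genes. For each gene the highest point belongs to replicate 1 of T-N1G at 1.0 µM.

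Under vehicle, the ring genes were compared between the 2 lines, and effects of T-N1G cannot be told apart from other differences between the lines. Psmc2 was higher in T-N1G than in mock cells by 0.45 on the log2 scale (SE 0.08, adjusted p = 0.000647) and Psmc1 by 0.41 (SE 0.07, adjusted p = 0.000688). These were 2 of the 6 ring genes, where 8.43% of all genes tested were called higher and 7.72% lower. Psmc3 (log2 0.20, adjusted p = 0.26), Psmc6 (0.14, adjusted p = 0.342), Psmc4 (-0.01, adjusted p = 0.961) and Psmc5 (-0.17, adjusted p = 0.253) did not pass the test. When only the vehicle groups entered the fit, without the wider spread of the 1.0 µM libraries, the count was 4 higher (Psmc3 and Psmc6 added) and 1 lower (Psmc5, log2 -0.17, adjusted p = 0.00712), but that fit also called more of all genes, 19.5% higher and 20.1% lower.

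In mock cells, which had no T-N1G and none of the 3 small Maf proteins, MG132 raised Psmc2, Psmc4 and Psmc6 and no other ring gene passed the test. At 0.3 µM Psmc4 rose by 0.57 on the log2 scale (SE 0.11, adjusted p = 0.000355), Psmc6 by 0.56 (SE 0.09, adjusted p = 7.35e-05) and Psmc2 by 0.44 (SE 0.08, adjusted p = 0.000153). That is 3 of 6 ring genes called higher, where 25% of all genes were, and 0 of 6 called lower, where 28.1% were. At either dose in mock cells the count called lower was 0 also at an unadjusted p under 0.05 and by DESeq2, while scaling by library size alone called Psmc1 lower at 1.0 µM (log2 -0.17, adjusted p = 0.0198). Psmc5 (log2 0.19, adjusted p = 0.104), Psmc3 (0.11, adjusted p = 0.447) and Psmc1 (0.00, adjusted p = 0.985) did not pass, and a fit of these 2 groups alone called 5 higher, with Psmc3 and Psmc5 added, and 36.5% of all genes.

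At 1.0 µM in mock cells the same 3 genes were called, Psmc2 at log2 0.77 (SE 0.08, adjusted p = 1.4e-07), Psmc4 at 0.45 (SE 0.11, adjusted p = 0.00163) and Psmc6 at 0.43 (SE 0.09, adjusted p = 0.000532). Over all genes, 32.4% were called higher and 37.4% lower in that comparison. Psmc3 (0.11), Psmc5 (0.07) and Psmc1 (-0.07) did not pass, with adjusted p-values of 0.424, 0.515 and 0.379. Between 0.3 and 1.0 µM, Psmc2 rose further by 0.33 (SE 0.08, adjusted p = 0.00261), and this was the 1 ring gene called, where 21.8% of genes were called higher and 27.8% lower. The other 5 had log2 differences of -0.13 to 0.00 between the doses.

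In T-N1G cells all 6 ring genes rose with MG132 at both doses. At 0.3 µM Psmc4 rose 3.81-fold (log2 1.93, SE 0.12, adjusted p = 2.05e-10), Psmc6 3.50-fold (log2 1.81), Psmc5 2.70-fold (1.43), Psmc3 2.62-fold (1.39), Psmc2 2.24-fold (1.17) and Psmc1 2.01-fold (1.01, SE 0.07, adjusted p = 1.94e-09). These were 6 of 6, where 29.1% of all genes were called higher and 30.3% lower. At 1.0 µM the rise was 4.72-fold for Psmc4 (log2 2.24, SE 0.12, adjusted p = 7.86e-12), 3.65-fold for Psmc6 (1.87), 3.41-fold for Psmc5 (1.77), 3.40-fold for Psmc3 (1.77), 2.98-fold for Psmc2 (1.58) and 2.23-fold for Psmc1 (1.16). There 37.5% of all genes were called higher and 38.9% lower. Psmc4 had the largest and Psmc1 the smallest change of the 6 at both doses.

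From 0.3 to 1.0 µM in T-N1G cells, Psmc2 rose by 0.41 (SE 0.08, adjusted p = 0.000276), Psmc3 by 0.38 (SE 0.12, adjusted p = 0.00959), Psmc5 by 0.34 (SE 0.10, adjusted p = 0.00568) and Psmc4 by 0.31 (SE 0.11, adjusted p = 0.0229) on the log2 scale. Psmc1 (0.15, adjusted p = 0.0836) and Psmc6 (0.06, adjusted p = 0.604) did not pass, so that 4 of 6 were called, where 29.3% of all genes were called higher and 30.8% lower. Replicate 1 of the T-N1G 1.0 µM group stood apart in this step. It had the highest value of its group for each ring gene, the highest Mafg (4238 CPM against 2933 and 2701) and the lowest TMM factor (0.897), and the part of these in the result was not tested. Without it 2 of 6 were called, where 25.5% of all genes were called higher, Psmc3 at 0.17 (adjusted p = 0.0928) and Psmc4 at 0.12 (adjusted p = 0.229) losing the call. Psmc4 was also lost without replicate 1 or replicate 3 of the T-N1G 0.3 µM group. A fit of these 2 groups alone also left 2 of 6 called, where 3139 of 12499 genes were called higher. In that fit Psmc3 (0.38, SE 0.15, adjusted p = 0.0662) and Psmc4 (0.32, SE 0.14, adjusted p = 0.0897) did not pass. Psmc1 was called in this step by DESeq2 (adjusted p = 0.0148), by limma on log2(FPKM + 1) (adjusted p = 0.0392), with the replicate number as a block (adjusted p = 0.0457) and without replicate 3 of the T-N1G 1.0 µM group (adjusted p = 0.0414).

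Set against mock cells at the same dose, T-N1G cells had more of every ring gene under MG132. The difference at 0.3 µM ran from log2 1.07 for Psmc5 (SE 0.10, adjusted p = 7.57e-08) to 1.48 for Psmc3 (SE 0.12, adjusted p = 1.2e-08), with 6 of 6 called, where 25% of all genes were called higher and 23.5% lower. At 1.0 µM it ran from 1.26 for Psmc2 (SE 0.08, adjusted p = 2.6e-10) to 1.86 for Psmc3 (SE 0.12, adjusted p = 2.92e-10), again with 6 of 6 called, where 30.7% were called higher and 31.3% lower. Psmc1 stood at 1.42 and 1.64, Psmc4 at 1.35 and 1.77 and Psmc6 at 1.39 and 1.58 at the 2 doses.

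Whether the response to MG132 itself differed between the lines was tested as the interaction of line and dose, the log2 response of T-N1G cells minus that of mock cells. It was above 0 for all 6 ring genes at both doses, where 14.2% of all genes were called with a larger log2 response in T-N1G cells at 0.3 µM and 22.9% at 1.0 µM, and 11% and 22.1% with a smaller one. Psmc4 had the largest value at both doses, 1.36 (SE 0.16, adjusted p = 6.63e-06) and 1.78 (SE 0.16, adjusted p = 8.24e-08). Psmc2, which had the largest response of the ring to 1.0 µM in mock cells, had the smallest interaction, 0.73 (SE 0.11, adjusted p = 0.000123) and 0.81 (SE 0.11, adjusted p = 1.41e-05). Psmc3 was at 1.28 and 1.66, Psmc5 at 1.24 and 1.70, Psmc6 at 1.25 and 1.44, and Psmc1 at 1.01 and 1.23. For Psmc1 the response of T-N1G cells and the interaction were nearly the same number, as its response in mock cells was 0.00 and -0.07. The plot of responses sets both lines beside their difference.

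**Figure D2:**
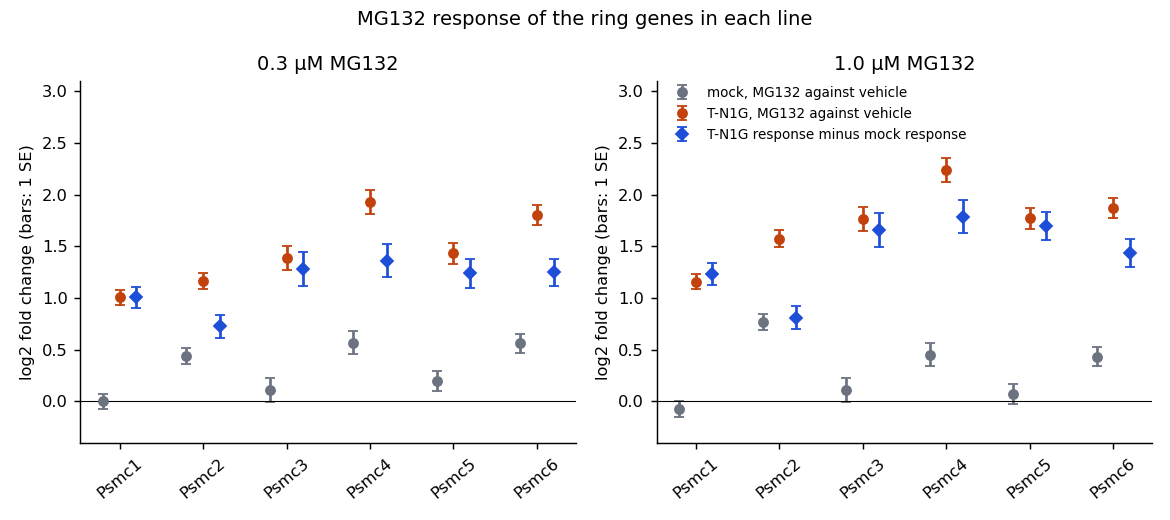
Log2 fold change of each ring gene (vertical axis, lines are 1 SE) after 0.3 µM and 1.0 µM MG132 in mock cells (grey), in T-N1G cells (orange) and as the difference of the 2 responses (blue diamonds). The orange points lie at 1.01 or more and the grey points at 0.77 or less, and the difference is smallest for Psmc2 at both doses.

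Levels were compared between the genes with the deposited FPKM, which divide by transcript length. In mock vehicle Psmc5 was highest at 139 ± 5.13 FPKM (SD, n = 3) and Psmc4 lowest at 71.8 ± 2.88 FPKM. The FPKM summed over the 6 genes was 618 ± 16.2 in mock vehicle, 773 ± 9.23 in mock 0.3 µM and 797 ± 68.3 in mock 1.0 µM. With T-N1G the sum was 699.9 ± 28.2 under vehicle, 1896 ± 103 at 0.3 µM and 2356 ± 380.3 at 1.0 µM. The ring genes took 0.0876% to 0.091% of all fragments in mock vehicle and 0.27% to 0.339% in T-N1G at 1.0 µM. The subunits are present once each in the ring, though transcripts do not give the amounts of protein. By group means, the 6 transcripts were closest to equal in T-N1G cells at 0.3 µM, while the T-N1G libraries at 1.0 µM varied widely. The highest was 1.94 ± 0.0092 times the lowest in mock vehicle and 1.92 ± 0.0167 times in T-N1G vehicle, against 1.36 ± 0.0046 times in T-N1G at 0.3 µM and 1.49 ± 0.187 times at 1.0 µM. In mock cells it was 1.59 ± 0.0331 times at 0.3 µM and 1.82 ± 0.101 times at 1.0 µM.

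The share of each gene in the summed FPKM moved differently from gene to gene. Psmc4, which had the smallest share under vehicle in both lines, took 11.6% ± 0.168 in mock vehicle and 10.2% ± 0.137 in T-N1G vehicle, and 14.4% ± 0.0656 and 14.6% ± 0.664 in T-N1G at the 2 doses. Its share in mock cells was 14.0% ± 0.241 at 0.3 µM and 12.9% ± 0.59 at 1.0 µM, so that in both lines every library with MG132 had a larger share than every vehicle library. Psmc1 went the other way, from 16.2% ± 0.213 to 13.2% ± 0.252 and 12.6% ± 0.606 in mock cells and from 19.1% ± 0.343 to 14.2% ± 0.0613 and 13.1% ± 0.978 in T-N1G cells. Psmc2 took 16.1% ± 0.111 in mock vehicle and 22.4% ± 1.09 in mock 1.0 µM, its largest share. In T-N1G cells the share of Psmc2 was 19.5% ± 0.17 under vehicle and lower with MG132, 16.2% ± 0.197 and 17.9% ± 1.01, with no overlap. Psmc5 led in mock vehicle at 22.6% ± 0.283 and took 17.7% ± 0.0801 in T-N1G vehicle, 17.7% ± 0.204 at 0.3 µM and 18.5% ± 0.281 at 1.0 µM. Psmc6 peaked at 0.3 µM in both lines, at 18.2% ± 0.441 (mock) and 19.3% ± 0.118 (T-N1G), and Psmc3 stayed between 15.5% and 20.6% in all libraries. No test was made of the shares, and the 6 shares of a library add up to the whole.

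**Figure D3:**
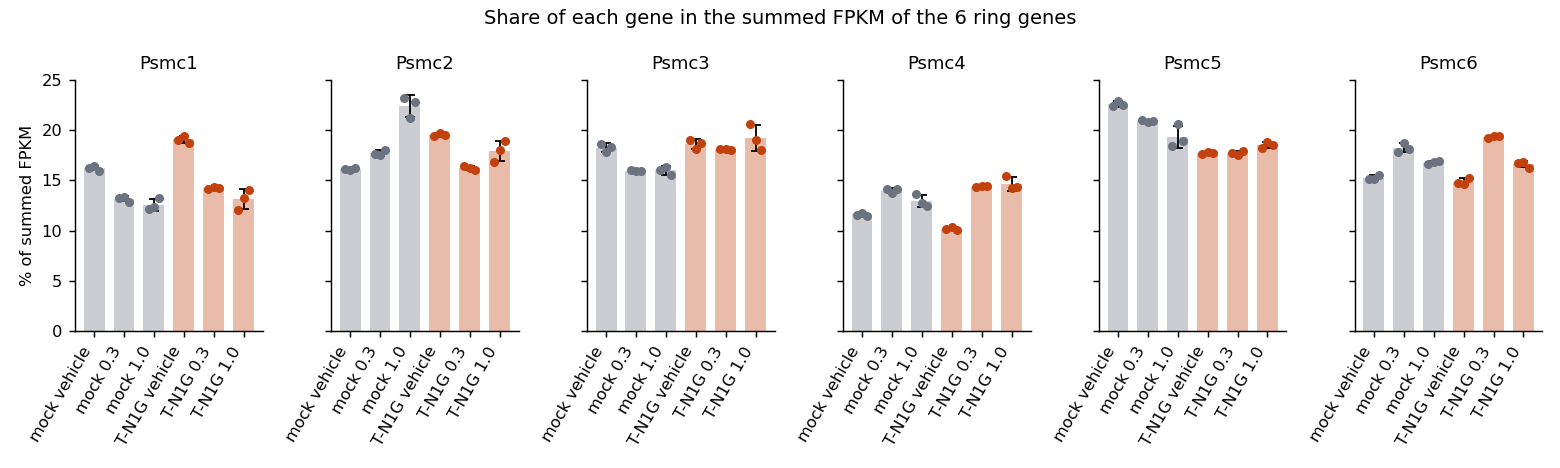
Share of each ring gene in the summed FPKM of the 6 genes (vertical axis, %) by line and MG132 dose, with a point per library, bars for the mean and lines for the SD (n = 3). Psmc4 takes more and Psmc1 less of the sum with MG132 than under vehicle in both lines, and Psmc2 reaches its largest share, 22.4%, in mock cells at 1.0 µM.

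The other genes of the proteasome were counted in the same comparisons. At 1.0 µM in T-N1G cells the 4 base subunits that are not ATPases all rose, with a median log2 change of 1.63, from 1.25 for Psmd1 to 2.43 for Psmd4, a ubiquitin receptor. Of 9 lid genes 8 rose (median 1.23), Psmd11 at 2.24 being the highest, and Shfm1 stood lowest at -0.42 (adjusted p = 0.0586), a call it gained without replicate 1 of T-N1G at 1.0 µM (-0.64, adjusted p = 0.00513) or replicate 3 of mock at 1.0 µM (-0.43, adjusted p = 0.0231). All 7 genes of the alpha ring, against which the ATPase ring docks, rose (median 1.18, from Psma2 at 0.27 to Psma1 at 1.60), as did all 7 constitutive beta genes (median 1.44, from Psmb5 at 0.32 to Psmb4 at 1.92). The median of the ATPase ring was 1.77 and that of all genes tested -0.01, with 37.5% called higher and 38.9% lower.

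In mock cells at 1.0 µM the ATPase ring had 3 called higher and 0 lower, with a median of 0.27. The alpha ring had 1 higher and 5 lower (median -0.51), the beta ring 2 and 2 (median 0.01), the lid 4 and 3 (median 0.16) and the other base subunits 2 and 1 (median 0.30). Of all genes 32.4% were called higher and 37.4% lower there, with a median of -0.04. These are counts and medians, and differences between the lists were not tested.

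The chaperones that assemble the ring did not all move with it. Of the 4 on the list, 3 were in the table. Psmd5, the chaperone of the Psmc2 and Psmc1 pair, rose by 1.32 in T-N1G cells at 1.0 µM (SE 0.08, adjusted p = 8.59e-11), while in mock cells it fell by 0.81 (SE 0.08, adjusted p = 1.29e-07), an interaction of 2.13 (adjusted p = 2.92e-10). Psmd9, the chaperone of Psmc6 and Psmc3, rose by 1.15 in T-N1G cells (SE 0.09, adjusted p = 1.53e-09) and stood at 0.02 in mock cells (adjusted p = 0.871). Psmd10, the chaperone of Psmc4 and Psmc5, was called lower in T-N1G cells (log2 -0.30, SE 0.11, adjusted p = 0.0218), with 35.9, 37.9 and 25.2 CPM at 1.0 µM against 38.9, 41.1 and 41.5 CPM under vehicle. That call rested on single libraries, as it was lost without replicate 3 at 1.0 µM (-0.12, adjusted p = 0.193) and without replicate 2 or 3 under vehicle (adjusted p = 0.0705 and 0.076). In mock cells Psmd10 stood at -0.12 (adjusted p = 0.345), and its interaction did not pass (-0.18, adjusted p = 0.383).

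Among 9 factors that bind the regulatory particle, 5 rose and 2 fell in T-N1G cells at 1.0 µM (median 0.19), from the shuttle factor Ubqln1 at 1.75 to Ubqln4 at -0.98. Of 18 AAA ATPases outside the proteasome, which share the fold but not the complex, 10 rose and 8 fell (median 0.28), from Spata5 at 1.42 to Fignl1 at -1.28, where 37.5% of all genes were called higher and 38.9% lower. The interaction at 1.0 µM was called higher for 7 and lower for 1 of these 18, where 22.9% of all genes were higher and 22.1% lower. Vcp, the unfoldase that hands ubiquitin-tagged proteins to the proteasome, was the highest at 1.32 (adjusted p = 3.15e-07) and Spast the lowest at -0.28 (adjusted p = 0.0178). In mock cells at 1.0 µM 5 of the 18 rose and 11 fell (median -0.29), beside 32.4% and 37.4% of all genes. The plot of changes by gene list shows each member.

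**Figure D4:**
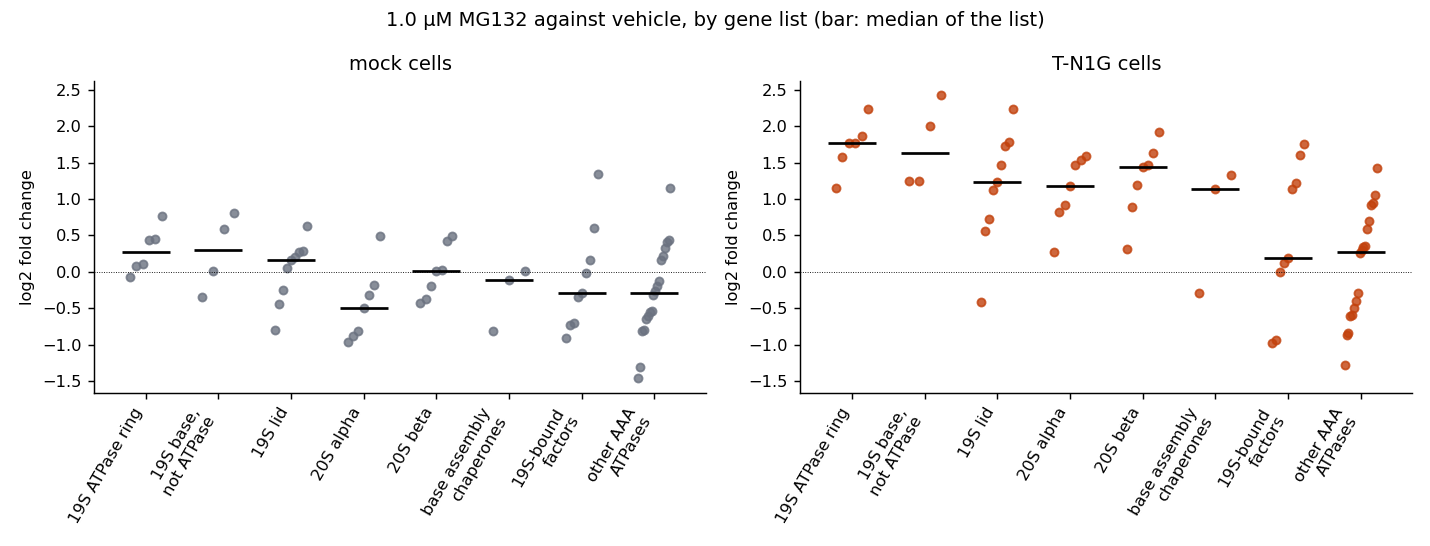
Log2 fold change of 1.0 µM MG132 against vehicle (vertical axis) for every tested gene of 8 lists, in mock cells (grey) and T-N1G cells (orange), with a bar at the median of each list. In T-N1G cells the ATPase ring has a median of 1.77 and no member below 1.16, and in mock cells its median is 0.27.

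Likeness to the ring was measured as Pearson's correlation of log2 CPM over the 18 libraries with the mean of the 6 ring genes, as a description. The libraries share the 6 groups, so this mostly reflects the group means. Within the ring, each gene set against the mean of the other 5 gave 0.988 for Psmc3, 0.986 for Psmc6, 0.984 for Psmc4, 0.983 for Psmc5, 0.964 for Psmc2 and 0.942 for Psmc1. The subunit genes outside the ring with the highest values were Psmd3 (0.994), Psmd4 (0.994), Psmd6 (0.993), Psmd11 (0.991) and Psmb4 (0.986), and 15 of the 27 other subunits were above 0.95. Outside the subunits, the highest were Txnl1 (0.995), a thioredoxin-like protein of the regulatory particle, Lrrc49 (0.993), Ncoa4 (0.991), the receptor for ferritin in autophagy, Gyk (0.991), a glycerol kinase, and Nup93 (0.991), a nuclear pore protein. Above 0.95 there were 221 genes outside the subunits. The 5 differed in size of change, since at 1.0 µM in T-N1G cells Lrrc49 rose by 1.80 and Ncoa4 by 0.62 on the log2 scale.

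In the GENCODE M21 annotation of GRCm38, 2 of the 6 ring genes had a protein-coding neighbour on the other strand whose 5′ end lay within 1000 bases of theirs, as did 10.9% of 21951 protein-coding genes. The 5′ ends of Psmc2 and Dnajc2, a chaperone of the ribosome, were 32 bases apart. The Psmc2 stretch printed above overlaps with an exon of Dnajc2, which holds its CCAAT match. The 5′ ends of Psmc5 and Ftsj3, which acts in rRNA processing, were 75 bases apart. These neighbours were looked up after the values of the ring genes had been seen. The sources used here do not say whether the counting used the strand, so fragments near the shared starts cannot be told apart.

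Dnajc2 had 95.0, 97.7 and 89.5 CPM in mock vehicle, 126, 123 and 125 CPM in mock 0.3 µM and 128, 131 and 125 CPM in mock 1.0 µM. In T-N1G cells it had 79.0, 90.3 and 77.0 CPM under vehicle, 190.5, 213 and 195 CPM at 0.3 µM and 268, 235 and 210.2 CPM at 1.0 µM. Dnajc2 thus rose in both lines, by 0.41 and 0.44 in mock cells (adjusted p = 0.000459 and 0.000117) and by 1.28 and 1.53 in T-N1G cells, with interactions of 0.88 (adjusted p = 2.75e-05) and 1.09 (adjusted p = 7.55e-07) beside 0.73 and 0.81 for Psmc2. Ftsj3 was lower in T-N1G than in mock cells under vehicle by log2 -0.58 (SE 0.10, adjusted p = 0.000699), where Psmc5 was at -0.17. Ftsj3 rose by 0.88 and 1.29 in T-N1G cells and by 0.42 and 0.44 in mock cells, with interactions of 0.46 (adjusted p = 0.0285) and 0.85 (adjusted p = 0.000125) beside 1.24 and 1.70 for Psmc5. The call of Ftsj3 at 0.3 µM was lost, at adjusted p-values of 0.0524 to 0.0797, without replicate 2 or 3 of T-N1G 0.3 µM, 1 or 3 of T-N1G vehicle, 2 or 3 of mock 0.3 µM, or 2 of mock vehicle. At 0.3 µM the difference of Ftsj3 between the lines did not pass the test (log2 -0.13, adjusted p = 0.316), whereas Psmc5 was higher in T-N1G cells by 1.07. The plot of ring genes and neighbours shows each pair.

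**Figure D5:**
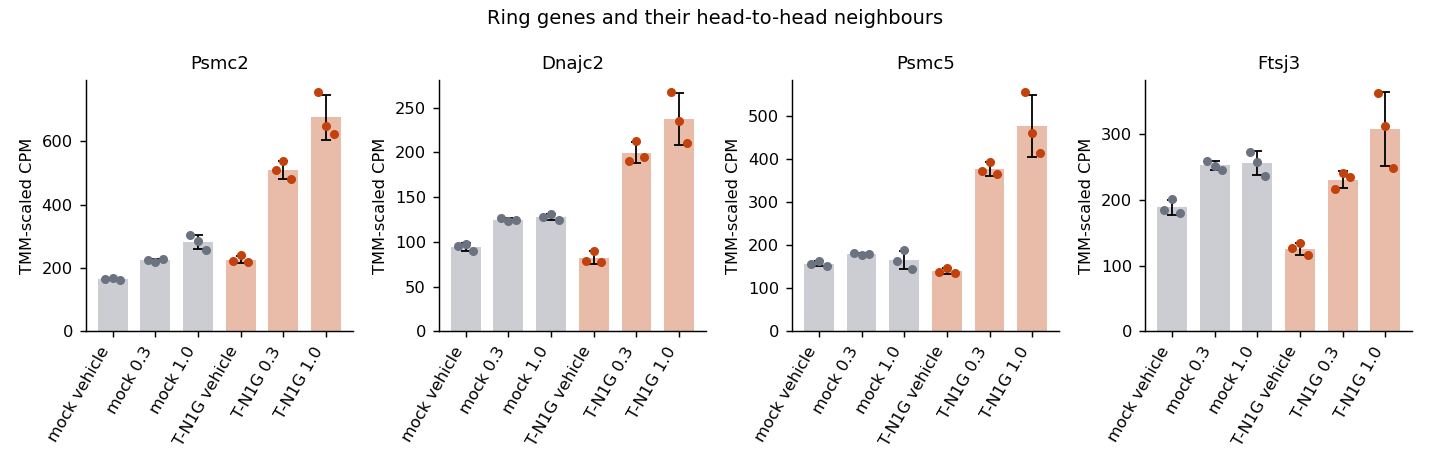
TMM-scaled CPM (vertical axis, own scale in each panel) of Psmc2 and its neighbour Dnajc2 and of Psmc5 and its neighbour Ftsj3 in mock (grey) and T-N1G (orange) cells by MG132 dose, with a point per library, bars for the mean and lines for the SD (n = 3). All 4 genes are highest on average in T-N1G cells at 1.0 µM, and Ftsj3 alone of the 4 is lower in T-N1G at 0.3 µM than in mock cells at that dose.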

How the data were processed

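The tools named, per the submitters' processing notes, are Cuffdiff 2.1.1, TopHat2 2.0.8b and bcl2fastq 2.16.0.10, and the build is mm9. The annotation, filters and strand setting were not given in the sources used here. Per the file headers, the deposited tables give, for every gene in every library, an estimated count of fragments without scaling, and an FPKM as scaled by Cuffdiff. Libraries were assigned by Cuffdiff's condition names (N1 read as T-N1G, L-MG as 0.3 µM, H-MG as 1.0 µM) and its numbers, which count from 0 and were taken as title numbers 1 to 3. The files do not state these links.

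Counts were rounded to whole numbers, and all 108 values of the ring genes were whole within 1e-06. Genes without a Cuffdiff estimate in some libraries (2 genes) were left out of totals and tests. Libraries of a group differed by more than sampling noise (chi-square over degrees of freedom 2.82 to 51.7), so none was counted as a duplicate. Reads carry no molecular identifiers. edgeR 4.0.16 (R 4.3.3) was used with TMM scaling, its expression filter by group, robust quasi-likelihood F tests and 1 fit of 6 group means on all 18 libraries. It was also run on simulated data in which each gene had the same spread in all groups. That run does not check the fit where libraries at 1.0 µM vary more. Standard errors are the size of the log2 fold change over the square root of F. Because 1 estimate of spread is shared, the wider spread at 1.0 µM enters every comparison.

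The genes named were the 6 ring genes, Nfe2l1 and Mafg, the 5 genes outside and the 5 inside the other subunits most like the ring mean, and the highest and lowest member of each list at 1.0 µM in T-N1G cells. Psmd5, Psmd9, Psmd10, Vcp, Spast and the neighbours were added after their values were seen. The members and lists were chosen with earlier results of these data known. Alternatives were library size scaling, no filter, DESeq2 1.42.0, limma 3.58.1 on log2(FPKM + 1) and log2(FPKM + 0.1), a replicate block, only the groups compared, and each library left out.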

Additional observations from a re-analysis of the deposited data

Results flagged for a closer look

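For each ring gene the test of the difference between the 2 lines' responses to MG132 passed at both doses, so that T-N1G and mock cells responded differently by edgeR's quasi-likelihood test with adjustment over all genes. At 0.3 µM the T-N1G response minus the mock response on the log2 scale was 1.01 for Psmc1, 0.73 for Psmc2, 1.28 for Psmc3, 1.36 for Psmc4, 1.24 for Psmc5 and 1.25 for Psmc6. At 1.0 µM it was 1.23 for Psmc1, 0.81 for Psmc2, 1.66 for Psmc3, 1.78 for Psmc4, 1.70 for Psmc5 and 1.44 for Psmc6. In T-N1G cells, all 3 libraries of each MG132 group were above all 3 vehicle libraries for each of the 6 genes. This concerns the response of T-N1G cells alone, where 29.1% of all genes were called higher at 0.3 µM and 37.5% at 1.0 µM. How many of all genes were separated in this way was not counted. The Mafg and Nfe2l1 transcripts also rose with the dose in T-N1G cells, and their part in the responses of the ring genes was not tested.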

How the results depend on the processing

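No called result turned its direction under the alternatives run, and 32 values of results that had not passed the test changed sign. Of 528 values of the 66 gene results under the 8 alternatives that keep or jointly drop libraries, 513 stayed on the same side of the threshold, 4 lost and 11 gained a call. Of 1188 values with each library left out, 1180 stayed, 4 lost and 4 gained a call. With only the groups compared in the fit, T-N1G against mock under vehicle gave 4 higher and 1 lower (2 and 0 in the shared fit), mock cells at 0.3 µM gave 5 higher (3) and the step from 0.3 to 1.0 µM in T-N1G cells gave 2 (4). That step ranged from 2 to 5 calls with each library left out, and mock cells at 0.3 µM from 3 to 4. Without both number 1 libraries of the 1.0 µM groups, an alternative added after seeing the data, the step gave 2. Scaling by library size alone shifted the median of all genes by -0.14 (T-N1G, 1.0 µM against vehicle) and -0.09 (mock), and there Psmc1 was called lower in mock cells at 1.0 µM (log2 -0.17, adjusted p = 0.0198), 1 gene rather than 0. DESeq2, limma on FPKM and the replicate block each called Psmc1 higher in the step from 0.3 to 1.0 µM in T-N1G cells. Same-numbered libraries deviated together in 34 of 45 pairs (r over 0.1, range -0.115 to 0.818, median 0.202), against 17 of 90 pairs of other numbers (median -0.143). Not every pair passed 0.1, so the numbers were not taken as pairs, although 18 of 18 libraries were closest on average to their own number, a hint from the data and not the design. With the replicate block 5 genes were called in that step (Psmc1, adjusted p = 0.0457) and no other count of ring genes changed. Shares computed from CPM, with no length correction, moved by more than 1 SD in 33 of 36 cases. The cause of these changes was not tested. Each ring gene had 1912 fragments or more in every library.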
